A study of Mus musculus with 2 samples.

Results

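Open chromatin at 10 genes of insulin-like growth factor (IGF) signalling was described in the adrenal gland of newborn mice. The 10 were the ligand Igf1, the receptors Igf1r and Insr, the adaptors Irs1 and Irs2, the mRNA-binding proteins Igf2bp1, Igf2bp2 and Igf2bp3, and the secreted binding proteins Igfbp2 and Igfbp5. They were taken by name, as genes of fetal and neonatal growth signalling, from the 21755 protein-coding genes that GENCODE M21 annotates on chromosomes 1 to 19 and X. The choice was made with earlier results of these data known. The study consists of DNase-seq of whole adrenal gland in 2 libraries, labelled biological replicates 1 and 2, from female B6CASTF1/J mice aged 4 days. These mice are F1 hybrids of the C57BL/6J and CAST/EiJ strains, and the parental alleles are pooled in every value. The labels speak of 3 females per sample and give both samples the same donor identifier, and the sources used here do not give whether glands were pooled or shared between libraries. There was no second group, so no test was made, and each value is given per library.

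IGF1 and IGF2 are secreted growth factors that act through the IGF1 receptor, a tyrosine kinase closely related to the insulin receptor. Both receptors phosphorylate adaptor proteins of the IRS family, which recruit PI3 kinase and so start AKT and mTOR signalling, while secreted IGF-binding proteins carry the ligands and limit or prolong their action. The pathway drives growth before and after birth, and mouse embryos without both receptors do not form adrenal glands.

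DNase I preferentially cuts open chromatin, a local excess of cuts is called as a peak, and a short protected stretch inside a peak is a footprint. Replicate 1 had 46031 peaks and 98364 footprints, and replicate 2 had 87387 peaks and 141983 footprints. Each peak carries the authors' own signal value, and the sources used here give neither its scaling nor the read depth. Replicate 2 values were the higher ones, with a median ratio of 2.06 to replicate 1 over 34781 peaks that overlapped 1 to 1. Levels are therefore given in both libraries, with percentiles inside each. Of marker genes, 5 of 10 of the steroid-producing cortex and 4 of 8 of medulla chromaffin cells had a peak near a transcription start site (TSS) in both libraries. So did 4 of 6 capsule and fibroblast, 2 of 6 endothelial, 0 of 6 liver, 2 of 6 kidney and 1 of 6 adipocyte genes. Over all protein-coding genes the share was 61.3%, above that of every list except capsule and fibroblast, at 66.7%. In the authors' stricter lists 3 of 10 cortex, 3 of 8 chromaffin and 3 of 6 capsule and fibroblast genes had one. Th, Dbh and Pnmt, which make catecholamines, and Cyp11b1, Hsd3b1 and Mc2r of the cortex had none in either library. The tissue was not sorted, so a peak present in few cells and a weak peak present in many cannot be told apart.

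All 10 genes had a peak overlapping the 1 kb to either side of an annotated TSS in both libraries, where 61.3% of all protein-coding genes did. In the authors' stricter lists 7 of 10 did, where 54.8% of all genes did. The 3 without were Igf1, Igfbp2 and Igfbp5. The strongest TSS peaks belonged to the receptors and Irs2, and the weakest to the ligand and Igfbp2. Ranked by the mean of their percentiles among all genes with a TSS peak, the order was Insr, Irs2, Igf1r, Irs1, Igf2bp3, Igf2bp2, Igf2bp1, Igfbp5, Igf1 and Igfbp2. The percentile ranges of the 2 libraries overlapped between neighbours in that order except after Igf1r, after Igf2bp3 and after Igfbp5. Insr, Irs2 and Igf1r therefore changed places among themselves between libraries but stood apart from the other 7.

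**Figure D1:**
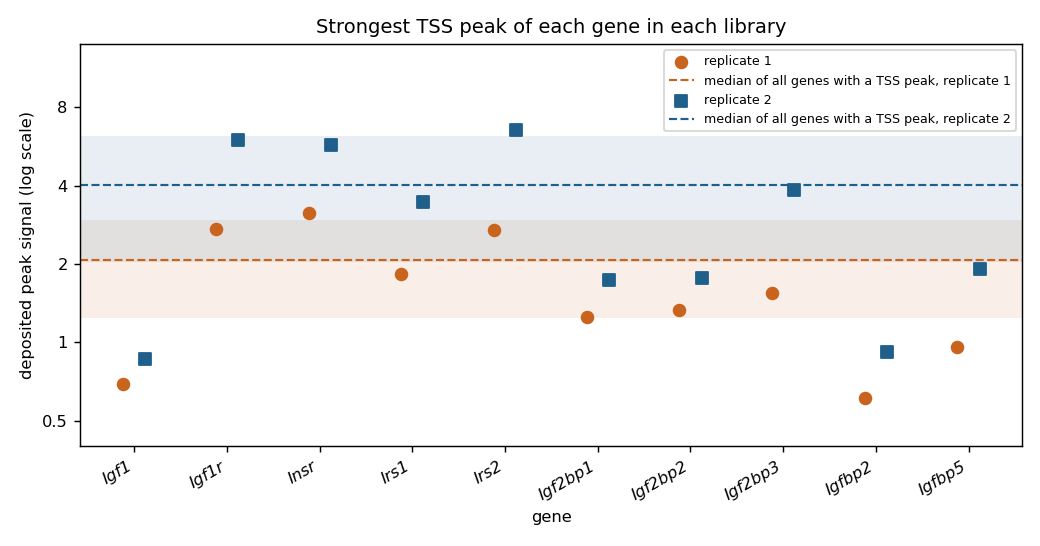
Deposited signal of the strongest TSS peak (vertical axis, log scale, the authors' units) of each of the 10 genes (horizontal axis), with circles for replicate 1 and squares for replicate 2. Dashed lines are the medians over all protein-coding genes with a TSS peak, 2.08 in replicate 1 and 4.03 in replicate 2, and shaded bands their quartiles; Igf1r, Insr and Irs2 lie above the median of their library and the other 7 genes lie below it.

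Away from the TSSs, 44 distinct peaks within 100 kb of a TSS of one of the 10 genes were present in both libraries. Of these, 27 lay in introns, 3 in exons and 14 between genes, and for 34 the nearest protein-coding TSS was that of one of the 10. Of the 44, 3 reach into a TSS window with their edge in replicate 2, at Igf1r, Irs2 and Igf2bp1, and are counted as TSS peaks too. Having such a shared distal peak is common, since 75.6% of all protein-coding genes had one. At 7 of the 10 genes a shared distal peak carried more signal than the gene's strongest TSS peak in both libraries. The same held for 24.7% of the 13346 genes with a TSS peak in both libraries. The 7 were Igf1, Igf1r, Irs1, Igf2bp1, Igf2bp3, Igfbp2 and Igfbp5, and the 3 others were Insr, Irs2 and Igf2bp2. Igfbp2 and Igfbp5 count the same peak, because their genes lie next to each other. With distal peaks sought only around the 5′-most TSS, Igf1r left the list and the count was 6, where 22.8% of genes did.

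**Figure D2:**
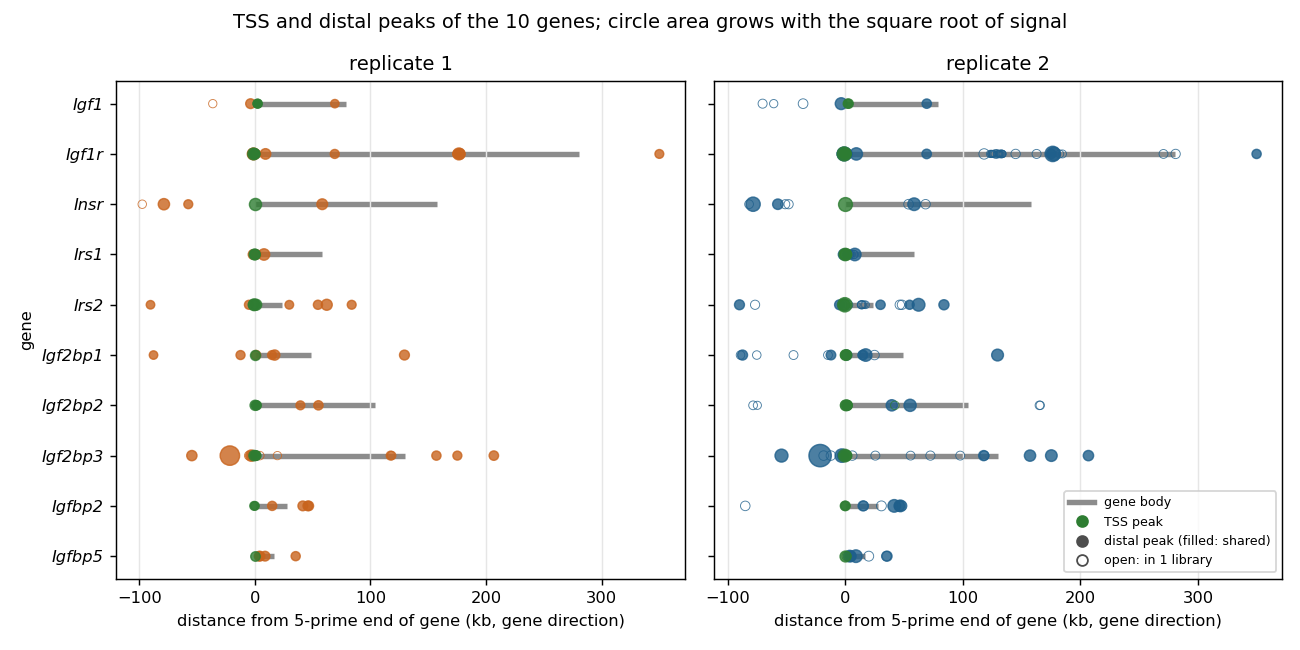
Peaks of the 10 genes by distance from the 5′ end of the gene (horizontal axis, kb, positive in the direction of transcription), replicate 1 on the left and replicate 2 on the right. Grey bars are gene bodies, green circles TSS peaks, orange or blue circles distal peaks, filled where the other library had an overlapping peak, and the area grows with the square root of the signal; the largest circle in both panels is the peak upstream of Igf2bp3, at 24.7 in replicate 1 and 44.7 in replicate 2.

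Igf1 encodes the peptide through which growth hormone promotes postnatal growth. The gene lies at chr10:87858265-87937042 (mm10) on the plus strand, and it had 3 TSS peaks in replicate 1, with signals of 0.444, 0.563 and 0.691, and 2 in replicate 2, of 0.801 and 0.862. None lay within 1 kb of the 5′ end. The strongest were centred 2429 bp downstream of it in replicate 1 and 2684 bp in replicate 2, among internal start sites, and ranked at percentiles 7.74 and 7.45 of genes with a TSS peak. The lowest deposited false discovery rate (FDR) around its TSSs was 0.000607 in replicate 1 and 0.00694 in replicate 2, and the replicate 2 value was the highest of the 10 genes in that library. Its 5′ region was also the poorest in CpG, with an observed over expected ratio of 0.186 within 500 bp of the 5′ end, where the median of all genes was 0.558.

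The clearest open region at Igf1 was upstream. A peak at chr10:87854521-87854700, 3654 bp before the 5′ end, had the same borders in both libraries and signals of 1.09 in replicate 1 and 2.81 in replicate 2. It lies in an intron of the antisense transcript Igf1os, and exceeded the strongest TSS peak in both libraries. It held 2 footprints in replicate 1 and 3 in replicate 2. A peak in an Igf1 intron, centred 69176 bp downstream in replicate 2, was weaker, at 0.486 and 0.880. The upstream region is shown because it is the strongest peak at the ligand gene. Here and in the other sequences the strand is that of the gene named, the build is GRCm38.p6 (mm10), and capitals mark bases inside replicate 2 footprints.
Igf1 upstream peak, chr10:87854521-87854700, plus strand: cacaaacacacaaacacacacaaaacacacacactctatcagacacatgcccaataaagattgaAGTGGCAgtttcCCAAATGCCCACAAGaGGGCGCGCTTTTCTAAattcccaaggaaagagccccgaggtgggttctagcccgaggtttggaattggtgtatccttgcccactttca

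Igf1r encodes the receptor for IGF1 and IGF2. Its strongest TSS peak, at 2.74 in replicate 1 and 5.98 in replicate 2, ranked at percentiles 69.6 and 72.5. That peak was not over the annotated 5′ end at chr7:67952827 but centred 1036 bp upstream in replicate 1 and 1046 bp in replicate 2, which is 466 and 476 bp upstream of the start of the RefSeq transcript. It reached the 1 kb window with its edge only. Closer to the start, the other peaks were at 1.55 and 1.06 in replicate 1 and at 2.00, 1.33 and 0.739 in replicate 2. With a 500 bp window the mean of the libraries for the strongest TSS peak was 1.77, against 4.36 with 1 kb. The upstream peak held 7 footprints in replicate 1 and 6 in replicate 2, and an E-box in it (CACGTG) had 5 of its 6 bases inside a footprint in replicate 2 and none in replicate 1. A further peak centred 1746 bp upstream in replicate 2 had 2.00 and 3.85.

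The strongest peak of Igf1r lay deep inside the gene. It spanned chr7:68129201-68129440 in replicate 1 and chr7:68129101-68129320 in replicate 2, in an intron, centred 176494 and 176384 bp from the 5′ end, with signals of 2.86 and 8.94. These values placed it at percentiles 98.6 and 99.8 of all distal peaks. A neighbouring peak, centred 177284 bp from the 5′ end in replicate 2, had 1.80 and 4.87. In its central 200 bp the stronger peak held 3 CCAAT boxes and a GC box (GGGCGG), and the GC box and 2 of the CCAAT boxes overlapped footprints in both libraries. These CCAAT boxes can be read in the second sequence, where they stand as CCAAT or as the reverse complement ATTGG. Both intronic peaks are over 100 kb from the 5′ end and count as distal peaks of Igf1r only through annotated starts of shorter transcripts within the gene, the nearest of which was 19379 bp from the stronger peak. The 2 regions are shown because they are the strongest near the start and in the body of the receptor gene.
Igf1r upstream peak, chr7:67951661-67951900, plus strand: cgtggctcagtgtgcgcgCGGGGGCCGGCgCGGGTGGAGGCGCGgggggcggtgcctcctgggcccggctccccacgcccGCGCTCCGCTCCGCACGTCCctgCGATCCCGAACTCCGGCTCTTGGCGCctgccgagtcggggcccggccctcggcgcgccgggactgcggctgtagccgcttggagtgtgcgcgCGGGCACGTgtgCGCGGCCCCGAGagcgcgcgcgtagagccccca
Igf1r intronic peak, chr7:68129101-68129320, plus strand: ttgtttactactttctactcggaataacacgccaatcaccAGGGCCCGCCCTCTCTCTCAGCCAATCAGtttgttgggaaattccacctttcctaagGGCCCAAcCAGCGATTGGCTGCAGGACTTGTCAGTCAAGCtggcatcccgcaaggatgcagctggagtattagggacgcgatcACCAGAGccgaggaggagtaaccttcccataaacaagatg

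Igf1r had 9 shared distal peaks, as many as or more than 98.4% of genes. Around the 5′-most TSS alone it had 5, as many as or more than 90% of genes counted in that way. Beyond the 3′ end, a weak peak at chr7:68302681-68302854, in an intron of Fam169b, had 0.640 and 0.809 and carried a match to the core motif of CTCF, an insulator protein, of which 5 of 12 bases were inside footprints in both libraries. In replicate 2 the gene had 37 distal peaks, against 10 in replicate 1. Of the 37, 20 lay in 1 run of 10.9 kb of intron, chr7:68075821-68086680, where replicate 1 had no peak. Their signals were between 0.123 and 0.686 with a median of 0.207, at a median percentile of 6.44 among the distal peaks of that library. Of the 20, 14 were in the authors' stricter list, with signals of 0.176 or more, against 0.158 or less in the 6 that were not, and 3 held a footprint. Shorter runs of the same kind lay at Irs1, with 8 peaks over 5.75 kb, of which 6 were in exons and 1 was in the stricter list, and in the Irs2 intron, with 6 peaks over 3.93 kb, of which 4 were in the stricter list.

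Insr encodes the insulin receptor, which can also bind IGF2. It had the simplest TSS pattern of the 10 genes, with 1 peak in each library, chr8:3279481-3279720 in replicate 1 and chr8:3279501-3279720 in replicate 2. The signals were 3.14 and 5.71, at percentiles 79.6 and 69.6, and the centres were 16 and 6 bp from the 5′ end. Insr ranked highest of the 10 in replicate 1 and the third in replicate 2. Each peak held 3 footprints, and each footprint was overlapped by one of the other library. A match to the FOXO motif (GTAAACA) lay in the central 200 bp, outside footprints. Among the 10 windows at the strongest TSS peaks this was the only match, and 1.43% of all promoter windows held one. A weaker Irs2 TSS peak, chr8:11009321-11009640 in replicate 2, also held one, as did another Irs2 peak between genes.

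Upstream of Insr, a peak centred 78634 bp before the 5′ end carried 2.24 in replicate 1 and 6.53 in replicate 2. It lies in an intron of A430078G23Rik, whose TSS is 4791 bp away, and holds a CTCF core match inside footprints of both libraries. In the Insr gene itself, an intronic peak centred 58426 bp downstream in replicate 2 had 1.76 and 3.74, and the intergenic peak 57554 bp upstream had 0.674 and 1.54. The TSS peak was the strongest region of Insr in replicate 1, whereas the peak with the CTCF match was so in replicate 2. The sequences show the part of the TSS peak before the transcribed region, and the upstream peak.
Insr TSS peak before the start, chr8:3279618-3279720, minus strand: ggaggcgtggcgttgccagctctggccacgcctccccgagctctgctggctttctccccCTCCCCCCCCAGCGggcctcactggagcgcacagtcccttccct
Insr upstream peak, chr8:3358181-3358320, minus strand: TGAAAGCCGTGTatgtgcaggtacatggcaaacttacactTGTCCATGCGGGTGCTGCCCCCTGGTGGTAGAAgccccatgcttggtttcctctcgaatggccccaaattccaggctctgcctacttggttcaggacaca

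Irs1 and Irs2 encode the adaptors that carry the signal from both receptors to PI3 kinase. Irs1 had a pair of TSS peaks shared by the libraries, one centred 215 bp upstream of the 5′ end in both, at 1.83 and 3.45, and one just inside the gene at 1.51 and 2.56. The upstream one ranked at percentiles 42.2 and 42.7. Only Igf1 had closer percentiles, but its strongest peaks differed in place, centred 2429 bp from the 5′ end in replicate 1 and 2684 bp in replicate 2. A peak in the Irs1 intron, chr1:82283321-82283580 in replicate 2, was stronger still, at 2.35 and 3.55. Its central 200 bp contained 4 GC boxes and 2 CCAAT boxes, and 1 base of 1 CCAAT box was inside a footprint, in replicate 2 alone. At another shared Irs1 peak, in an exon, the usual order of the libraries was turned round, with 0.827 in replicate 1 and 0.598 in replicate 2. The ratio of 0.723 was lower than at all but 0.334% of peaks.

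Irs2 had the highest TSS signal of the 10 in replicate 2. Its strongest TSS peak had 2.70 in replicate 1 and 6.57 in replicate 2, at percentiles 68.5 and 78.0. Its centre was 553 and 573 bp upstream of the GENCODE 5′ end, but only 82 and 102 bp from the RefSeq start at chr8:11008929. The sequence around the GENCODE end had the highest CpG ratio of the 10, 1.05, above 99.3% of genes. The central 200 bp held a GC box inside footprints of both libraries, 2 CCAAT boxes and an E-box, of which 1 CCAAT box and the E-box overlapped footprints in replicate 1 alone. The noncoding gene 9530052E02Rik starts within 1 kb of the replicate 1 peak, though not of the narrower replicate 2 peak, so the replicate 1 peak cannot be given to one of the pair. Irs2 had 7 shared distal peaks, as many as or more than 95.4% of genes, but 3 within 50 kb, 3 with 50% reciprocal overlap and 2 in the stricter lists, and no other coding gene's TSS was nearer to any of them. The strongest of those outside the TSS window, chr8:10946121-10946340, lay 62227 bp downstream in an intron of Gm44955, with 1.97 and 3.90. It did not reach the TSS peak in either library. The adaptor sequences are the Irs2 region before the RefSeq start and the Irs1 intronic region, one the strongest TSS peak and the other a stronger region away from a start.
Irs2 TSS peak before the start, chr8:11008930-11009180, minus strand: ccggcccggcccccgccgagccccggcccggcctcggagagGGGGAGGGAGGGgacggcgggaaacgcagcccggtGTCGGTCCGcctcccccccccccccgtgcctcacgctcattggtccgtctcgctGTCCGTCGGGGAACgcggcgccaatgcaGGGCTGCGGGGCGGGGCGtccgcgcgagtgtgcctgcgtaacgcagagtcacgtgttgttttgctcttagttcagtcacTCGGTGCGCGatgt
Irs1 intronic peak, chr1:82283321-82283580, minus strand: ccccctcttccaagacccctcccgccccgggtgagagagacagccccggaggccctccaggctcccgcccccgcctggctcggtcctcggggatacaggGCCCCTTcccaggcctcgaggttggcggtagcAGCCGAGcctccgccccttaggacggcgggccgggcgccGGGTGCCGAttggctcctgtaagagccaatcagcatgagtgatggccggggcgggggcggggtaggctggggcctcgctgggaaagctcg

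**Figure D3:**
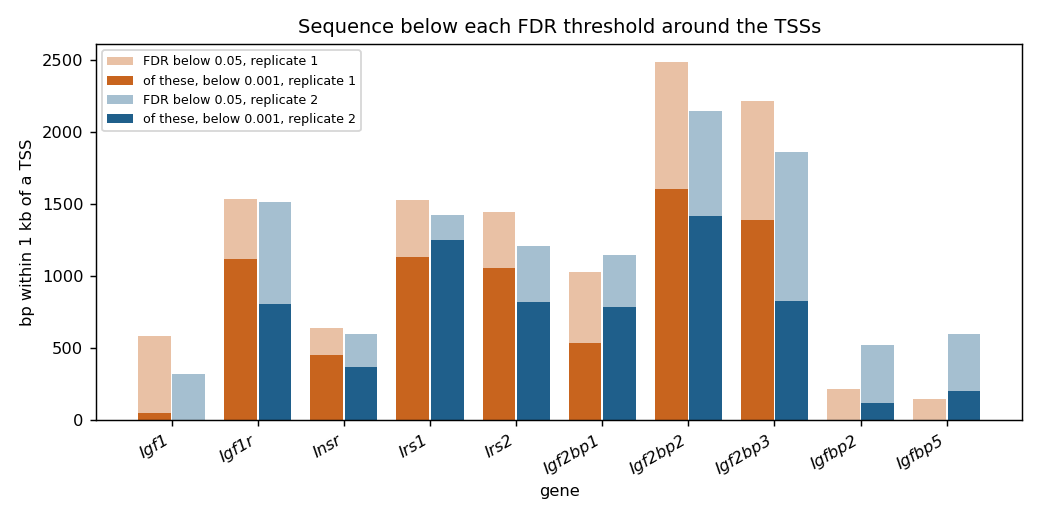
Number of bases within 1 kb of a TSS (vertical axis, bp) that the authors list with a false discovery rate below 0.05 (pale bars) and below 0.001 (dark bars), for the 10 genes, replicate 1 in orange and replicate 2 in blue. Igf2bp2 has the most bases below 0.05, 2489 in replicate 1 and 2151 in replicate 2, over the longest stretch searched, 13893 bp around several starts, whereas Irs1 has 1528 and 1427 within 2001 bp; Igfbp2, Igfbp5 and Igf1 have the fewest below 0.001.

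Igf2bp1, Igf2bp2 and Igf2bp3 encode cytoplasmic proteins that bind mRNAs, among them that of IGF2, and are abundant in the embryo. Their TSS regions held several or wide peaks, mostly of low signal. Igf2bp1 had 1.25 in replicate 1, in a peak of 780 bp, and 1.74 in replicate 2, in a peak of 580 bp, at percentiles 25.2 and 21. Igf2bp2 had 1.33 and 1.77, at percentiles 27.3 and 21.3. It had 4 TSS peaks in replicate 1 and 7 in replicate 2, which together covered 1554 and 1513 bp. Igf2bp3 had 4 and 5 TSS peaks, of which the strongest, at 1.55 and 3.86 and percentiles 34.1 and 47.9, was centred 634 and 544 bp upstream of the 5′ end. The noncoding genes Gm29202 and Gm37179 start within 1 kb of Igf2bp1 peaks.

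The signal of the wide TSS peaks differed less between libraries than that of most peaks. At the strongest TSS peak the ratio of replicate 2 to replicate 1 was 1.39 for Igf2bp1 and 1.33 for Igf2bp2, while promoter peaks had a median of 1.95 and peaks of 400 bp or more in replicate 1 a median of 1.82. Both shared intronic peaks of Igf2bp2 differed more than most. A peak at chr16:22108201-22108380 in replicate 2, centred 55008 bp inside the gene, had 0.844 and 3.19, and one centred 39438 bp inside had 0.657 and 2.22. Their ratios of 3.78 and 3.38 were at percentiles 97.5 and 94.5 of all peaks that overlapped 1 to 1. In replicate 1 the Igf2bp2 TSS peak was therefore the stronger, and in replicate 2 the intronic one was. The stronger intronic peak held an AP-1 motif (TGANTCA) with 3 of its 7 bases inside a footprint in replicate 1 and 2 in replicate 2. At Igf2bp1 an intronic peak, chr11:95988621-95988800, had 1.37 and 3.55 with the same borders in both libraries and exceeded the TSS peak in both. The ratio there was 2.60, and at the intronic peak next to it 1.63. The Igf2bp2 region is shown for its AP-1 match, whose letters run across the end of a replicate 2 footprint. The other footprints marked in it, the longest among them, held none of the strings searched. Sites spelled otherwise were not looked for.
Igf2bp2 intronic peak, chr16:22108201-22108380, minus strand: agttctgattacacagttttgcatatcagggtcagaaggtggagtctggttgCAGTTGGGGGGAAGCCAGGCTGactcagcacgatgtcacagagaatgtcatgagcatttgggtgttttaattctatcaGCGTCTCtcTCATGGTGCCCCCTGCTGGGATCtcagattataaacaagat

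Igf2bp3 had 8 shared distal peaks, as many as or more than 97.2% of genes. Around the 5′-most TSS alone it had 4, as many as or more than 84.2% of genes counted in that way. The strongest by far was a peak of 180 bp between genes, chr6:49236441-49236620, 21574 bp upstream, with the same borders and signals of 24.7 in replicate 1 and 44.7 in replicate 2. Among all peaks of a library it ranked 5 of 46031 in replicate 1 and 4 of 87387 in replicate 2. Its sequence is not unique in the genome. Of its 36-base words, 84.8% occurred more than once, with a median of 3 copies, although only 3.89% of its bases are masked as repeats in the reference. On the assembled chromosomes and the mitochondrial genome its words matched 11 places, itself included. Peaks lay over 4 of them in replicate 2 and over 3 in replicate 1. Unplaced sequence was not searched, so these numbers of copies and places are lower bounds. The closest copy found, sharing 66.9% of the words, lay in Gphn and had peaks of 8.93 and 13.2. A copy in Lars2, sharing 42.1%, had peaks of 29.8 and 43.9, and an intergenic copy on chromosome 16, sharing 16.6%, had a peak of 14.1 in replicate 2 alone. The sources used here do not give how reads that match several copies were placed, and the part of the copies in this signal was not tested. Of all distal peaks, 2.85% in replicate 1 and 3.29% in replicate 2 had 50% or more of their words repeated, but among the 100 with the highest signal the numbers were 18 and 9.

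The other Igf2bp3 peaks had at most 5.41% of their words repeated. The strongest, chr6:49217981-49218220 in replicate 2, centred 3144 bp upstream, had 2.21 and 4.95 and exceeded the TSS peak in both libraries. Its central 200 bp held 3 GC boxes and 2 CCAAT boxes, of which 1 GC box and 1 CCAAT box overlapped footprints of both libraries. The peak at chr6:49269321-49269500, 54454 bp upstream and 5378 bp from the TSS of Tra2a, had 1.40 and 4.23 and held a CTCF core match in footprints of both libraries. Downstream of the gene, peaks in Gpnmb and near Svs1 counted as well, because an annotated Igf2bp3 transcript starts near the 3′ end. One other peak of the 10 genes had 50% or more of its words repeated. It was a weak peak 75497 bp upstream of Igf2bp1, at 0.554 in replicate 2, with 59.2% of its words repeated but 33.3% of its 50-base words, and replicate 1 had none there. No TSS peak of the 10 genes was of this kind. The 3 Igf2bp3 regions are shown so that the repeated one can be set beside the unique ones.
Igf2bp3 repeated peak, chr6:49236441-49236620, minus strand: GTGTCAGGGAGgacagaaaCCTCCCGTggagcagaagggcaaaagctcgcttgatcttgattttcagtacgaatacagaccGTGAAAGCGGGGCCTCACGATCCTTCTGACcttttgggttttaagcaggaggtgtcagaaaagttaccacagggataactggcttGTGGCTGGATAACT
Igf2bp3 upstream peak, chr6:49217981-49218220, minus strand: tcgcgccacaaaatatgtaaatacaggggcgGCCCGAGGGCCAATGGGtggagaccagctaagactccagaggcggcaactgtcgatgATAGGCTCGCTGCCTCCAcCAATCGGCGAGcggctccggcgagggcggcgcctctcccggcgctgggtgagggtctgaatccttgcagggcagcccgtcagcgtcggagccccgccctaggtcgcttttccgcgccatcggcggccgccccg
Igf2bp3 peak towards Tra2a, chr6:49269321-49269500, minus strand: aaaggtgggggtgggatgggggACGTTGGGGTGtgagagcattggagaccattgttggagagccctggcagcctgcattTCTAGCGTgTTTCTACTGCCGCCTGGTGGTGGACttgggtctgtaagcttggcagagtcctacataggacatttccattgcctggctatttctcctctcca

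**Figure D4:**
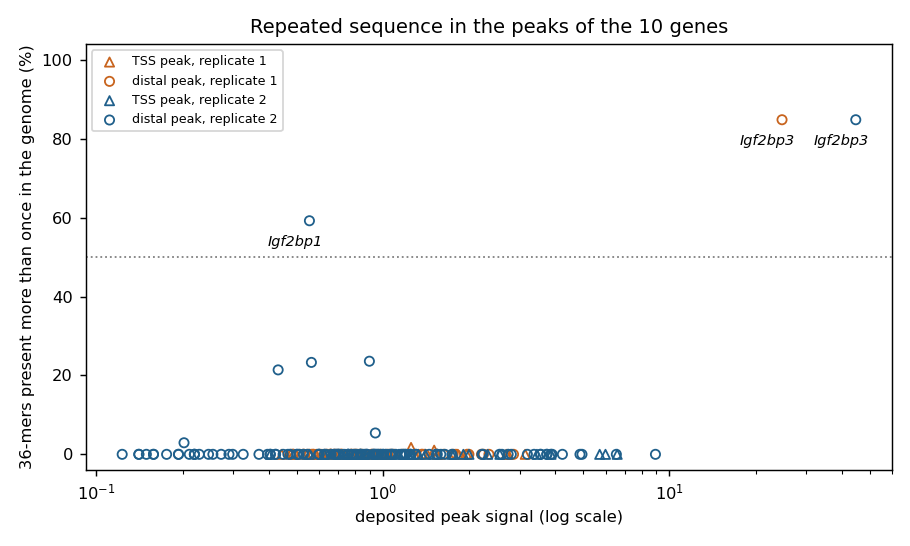
Share of 36-base words that occur more than once in the genome (vertical axis, %) against deposited signal (horizontal axis, log scale) for every TSS peak (triangles) and distal peak (circles) of the 10 genes, replicate 1 in orange and replicate 2 in blue. The dotted line marks 50%; the peak upstream of Igf2bp3, at 84.8% in both libraries, stands apart on both axes, and all but 3 points lie below the line.

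Igfbp2 and Igfbp5 encode secreted proteins that bind IGFs outside the cell, and their genes lie side by side on chromosome 1 with their 3′ ends facing each other. Both had weak TSS peaks. Igfbp2 had 0.614 and 0.563 in replicate 1 and 0.836 and 0.915 in replicate 2. The stronger of the pair was the upstream one, 545 bp before the 5′ end, in replicate 1 and the one over the 5′ end in replicate 2, so the strongest peaks of the libraries did not overlap. Their percentiles of 5.50 and 8.55 were among the lowest of the 10 genes. Igfbp5 had 1 peak centred 51 bp upstream of the 5′ end in replicate 1, at 0.964, and the matching peak in replicate 2, centred 57 bp upstream, at 1.91, with percentiles of 16.3 and 23.3. A further Igfbp5 peak, at 0.836, was present in replicate 2 alone.

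Within 100 kb of both genes lay the same 4 shared distal peaks, 3 in introns of Igfbp5 and 1 in an intron of Igfbp2. The strongest, chr1:72865921-72866100 in replicate 2, was centred 8873 bp inside Igfbp5, with 1.07 in replicate 1 and 3.73 in replicate 2. That exceeded the strongest TSS peak of either gene in both libraries, in replicate 1 by a small margin at Igfbp5. The other Igfbp5 peaks had 0.921 and 2.60, and 1.04 and 1.65, and the Igfbp2 peak had 0.776 and 1.25. The strongest of these regions held 1 footprint in replicate 1 and 3 in replicate 2. It is shown together with the sequence before the Igfbp5 start.
Igfbp5 TSS peak before the start, chr1:72874885-72875020, minus strand: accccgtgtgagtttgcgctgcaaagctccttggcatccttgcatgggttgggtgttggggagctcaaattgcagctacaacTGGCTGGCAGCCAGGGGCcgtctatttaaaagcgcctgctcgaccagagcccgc
Igfbp5 intronic peak, chr1:72865921-72866100, minus strand: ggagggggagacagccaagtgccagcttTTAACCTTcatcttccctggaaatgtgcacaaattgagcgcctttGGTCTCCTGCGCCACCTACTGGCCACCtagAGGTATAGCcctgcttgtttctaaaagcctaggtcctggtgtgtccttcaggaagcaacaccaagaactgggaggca

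Across the 10 genes, footprints in TSS peaks numbered 83 in replicate 1 and 65 in replicate 2, and those in distal peaks 84 and 179. Of the footprints in TSS peaks, 27.7% in replicate 1 and 35.4% in replicate 2 were overlapped by a footprint of the other library, where 48.4% and 41.8% were over all promoter peaks. In the distal peaks of the 10 genes the shares were 54.8% and 27.4%, close to the 58.1% and 26.5% over all distal peaks. The density of footprints in TSS peaks was 0.988 per 100 bp in replicate 1 and 0.835 in replicate 2, where all promoter peaks had 0.946 and 0.959. The difference in these shares was not tested, and in each library 23 footprints in TSS peaks were the shared ones. None of the footprints in Igf2bp1 TSS peaks, 3 in replicate 1 and 8 in replicate 2, was shared.

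Motifs were read as letters in windows of 200 bp at the centre of the strongest TSS peak of each gene and of each shared distal peak. Of the 10 TSS windows, 7 held a GC box, 5 a CCAAT box and 3 an E-box. Over all promoter windows the shares were 46.3%, 22.7% and 6.03%. Of the 44 distal windows, 25% held a GC box and 9.09% an E-box, against 9.79% and 3.78% of all distal windows. The 3 peaks that also count as TSS peaks all held a GC box, and without them the shares were 19.5% and 7.32% of 41 windows. The Igf1r peak upstream of the start is among both the TSS and the distal windows. The fixed string used for the CTCF core matched in 3 of the 44, which is 6.82% against 3.73%, and all 3 matches overlapped footprints of both libraries. CTCF sites spelled otherwise were not counted, so the other distal peaks cannot be called free of them. A site for SF-1, the nuclear receptor of steroid-producing cells encoded by Nr5a1, was found in 1 of the 44, the peak in Fam169b, against 2.55% of all, and not in a footprint. The shares over all windows are those of the 32662 promoter and 54725 distal peaks of replicate 2, shared or not. The 10 windows are at the strongest TSS peak of each gene, and the 44 are at shared peaks alone. The part of this choice in the differences was not tested. These shares describe the letters only, and with 10 and 44 windows a single match moves them by several percentage points.

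Of 56 other genes of the pathway, 46, or 82.1%, had a TSS peak in both libraries, where 61.3% of all protein-coding genes did. The share differed between roles, but each role holds few genes and the differences were not tested. All 10 genes of PI3 kinase and AKT signalling, all 8 of mTOR, all 5 of FOXO and GSK3 and all 5 of growth hormone signalling had one. So did 7 of 8 adaptors, 3 of 4 proteases of binding proteins and their inhibitors and 4 of 5 fetal growth regulators around the let-7 miRNA. Of the ligands 1 of 3 did, of the receptors 1 of 2, and of the secreted binding proteins 2 of 6. Igfbp1, Igfbp6 and Pappa2, an IGF-binding protein protease, and the adaptor Irs3 had none in either library.

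Of the gene with the highest mean percentile in each role, those that act inside the cell had the stronger peaks. Pik3r2, a regulatory subunit of PI3 kinase, had 4.84 in replicate 1 and 10.4 in replicate 2. Foxo6, a transcription factor restrained by AKT, had 4.40 and 11.4, Rptor, the defining subunit of mTORC1, had 3.91 and 12.8, and the adaptor Grb2 had 4.91 and 8.59. Plag1, a transcription factor that activates Igf2, had 4.09 and 9.75, and Socs2, an inhibitor of growth hormone signalling, had 2.70 and 5.90. The highest genes of the ligands, receptors, binding proteins and proteases were lower. Igfbp7 had 1.51 and 3.03, Igf2r, the clearance receptor for IGF2, 1.60 and 1.79, Igf2 itself 0.776 and 1.06, and Stc2, an inhibitor of the binding protein proteases, 0.674 and 1.61. Within the 10 genes the ligand and Igfbp2 were the lowest in both libraries, but there the receptors, with Irs2, stood at the top. Igfbp5 was at percentile 16.3 in replicate 1, below Igf2bp1 at 25.2 and Igf2bp2 at 27.3. In replicate 2 it was at 23.3, above Igf2bp1 at 21 and Igf2bp2 at 21.3.

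**Figure D5:**
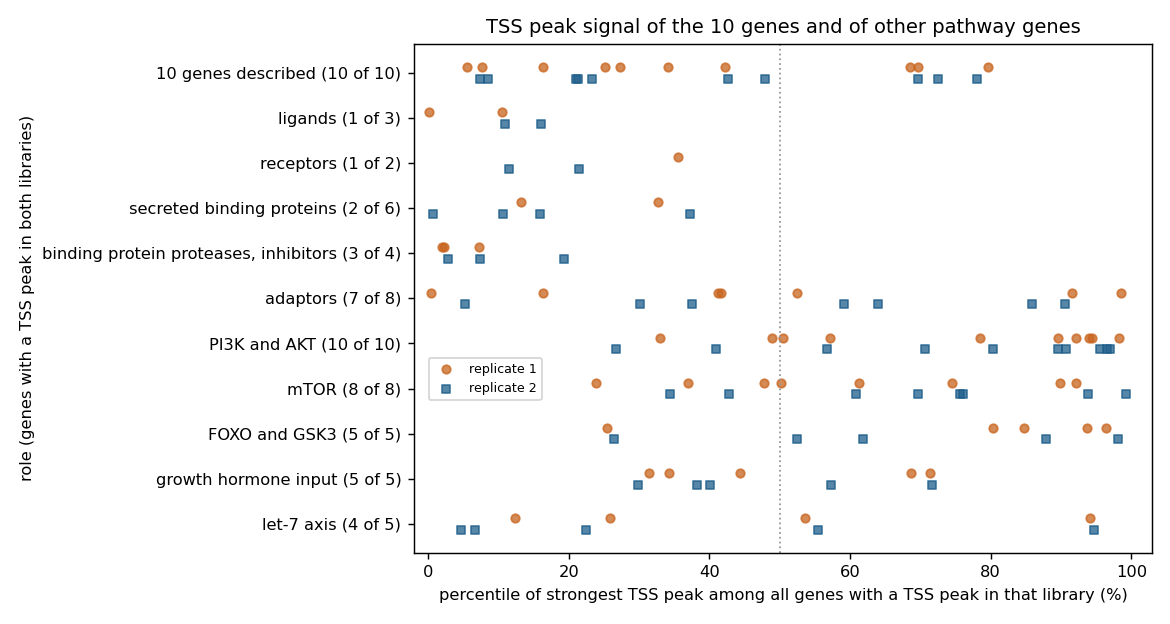
Percentile of the strongest TSS peak among all genes with a TSS peak in the same library (horizontal axis, %) for the 10 genes and for other pathway genes by role (rows), circles for replicate 1 and squares for replicate 2; a gene without a TSS peak in a library has no mark there. Row names give how many genes had such a peak in both libraries; marks of ligands, secreted binding proteins and their proteases lie left of the dotted line at 50%, and those of PI3 kinase and AKT genes reach percentile 98.3.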

How the data were processed

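DNase-seq libraries of 2 samples of 1 group were used. Per the labels, all files are on mm10; callers, filters and read depth are not given in the sources used, so no counting error could be computed. The authors deposited 2 peak lists per library with a signal value per peak, a list of false discovery rates (adjusted p-values for the rate of cuts, below 0.05 only) and a list of footprints. The deposited footprint entries all carry the value 0.01, so that they were used for position only. Files were read per library, none pooled, and 0 columns belonged to other series.

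Positions were set against GRCm38.p6 with GENCODE M21 and RefSeq, using Python 3.11.15, numpy 2.4.6, pandas 2.3.3 and numba 0.67.0. The longer peak list was the main one. A TSS peak overlaps 1 kb to either side of any annotated TSS of a gene. A distal peak is centred over 1 kb from every annotated TSS and within 100 kb of a TSS of the gene. It is shared when a peak of the other library overlaps it by at least 1 bp, and shared peaks are counted in replicate 2. A promoter peak is centred within 1 kb of a TSS. Percentiles are within a library. A peak counted as repeated when 50% or more of its 36-base words occur more than once in the reference, on either strand. The 15 motifs were searched as fixed strings, in which N is any base, on both strands in 200 bp windows. The letters of the GC box, CCAAT box, E-box, AP-1 and FOXO motifs are given with the results. For the steroidogenic factor SF-1 the search used CAAGGTCA, for the cyclic AMP response element it used TGACGTCA, and for the ETS family of factors it used CCGGAAG. For the respiratory factor NRF1 the letters were GCGCATGCG, for the early growth response factor EGR they were GCGTGGGCG, and for the signal transducer STAT5 they were TTCNNNGAA. For the erythroid and endocrine GATA family the letters were AGATAA, and for the core promoter element named the TATA box they were TATAAA. The NFI full site and the CTCF core are given by name. A match overlaps a footprint when they share at least 1 bp. An EGR match followed by G also holds a GC box. The scripts for overlaps, word copies and motifs were tested on simulated data.

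The 10 genes, the pathway and marker lists and the motifs were chosen with earlier results of these data known. All 10 genes are named, with the strongest TSS peak per library and up to 3 shared distal peaks each by mean percentile, beside peaks singled out after their values were seen. These are the peaks with CTCF or SF-1 matches, the low-signal runs, the turned-round Irs1 peak and the repeated peaks. Of the pathway genes, the highest of each role by mean percentile and those with no TSS peak are named. Alternatives were other windows and reaches, the stricter lists, equal peak numbers, 50% reciprocal overlap, 50-base words and each library alone.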

Additional observations from a re-analysis of the deposited data

How the results depend on the processing

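Of the 10 genes, 7 to 10 had a TSS peak under other windows, starts, lists and overlaps, and all 10 did in either library alone. Igf1 was lost with the 5′-most TSS only, with equal peak numbers, with 50% reciprocal overlap and in the stricter lists. The 44 shared distal peaks became 22 in the stricter lists and 43 without the repeated peak, and single libraries gave 51 to 121. The mean share of TSS footprints found in the other library was 31.6%, and 24.7% with 50% reciprocal overlap; for distal footprints it was 41.1% and 24.5%. Counts were held to 1.5 times the main value, and footprint shares were set against the spread between libraries. Of 35 such checks over all 10 genes or the pathway, 32 were classed as unchanged and 3 as moved. The 3 were the 22 distal peaks of the stricter lists, the 121 of replicate 2 alone and the TSS footprint share of 24.7%. For single genes 108 stayed and 28 did not. Among these 28, the strongest TSS peak of Igf1r had a mean of 1.77 with a 500 bp window, against 4.36, since that peak lies outside the smaller window. With 50-base words, 2 peaks in place of 3 counted as repeated over both libraries, and the one near Igf2bp1 no longer did. In the stricter lists the shared distal peaks numbered 5 at Igf1r and 5 at Igf2bp3, against 9 and 8.

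The count of 7 genes with a stronger shared distal peak was examined after seeing the data; it was 7 within 50 kb, with a 2.5 kb TSS window and without repeated peaks, 6 around the 5′-most TSS, and 7 to 9 in single libraries. Over these settings 17.2% to 41.6% of genes with a TSS peak had one. No paired analysis was possible because the study has 1 group. Without read depth, a weak peak missing from a library cannot be told from a closed region.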
